A study of Mus musculus with 20 samples.

Results

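The genes described here are those whose response to dietary restriction in the liver differed between progeroid and wild type mice, that is, genes with a genotype by diet interaction. All 20 arrays of the study entered the comparison, 1 array per animal and 5 animals in each of 4 groups, each animal assigned by its labelled source. The interaction of a gene is its restricted minus control difference in progeroid livers minus the same difference in wild type livers, on the log2 scale, so that a value of 1 is a difference of 2-fold between the 2 responses. Of 17097 genes tested, 240 had an interaction at an adjusted p under 0.05 (1.40%), and these are called here. All mice had an F1 C57BL6J/FVB hybrid background and were 11 weeks old. Progeroid mice were Ercc1Δ/-, from crosses of Ercc1Δ/+ with Ercc1+/- parents, and carry the alteration in every tissue; wild type littermates served as controls. Control animals of both genotypes ate AIN93G pellets freely. Restricted animals of both genotypes received 10% less food from 7 weeks of age, with weekly steps to 30% less at 9 weeks, given just before the dark period. Wild type mice ate 3.0 g a day on average, which put their 30% restriction at 2.1 g a day; elsewhere the labels give 2.1 g a day for 10% and 1.6 g a day for 30% restriction without naming the genotype, so the amount each genotype received is not settled. The labels name neither sex nor the hour of tissue collection. Each group is one F1 cross at one age and one duration of restriction.

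ERCC1 works with XPF as the endonuclease that cuts out damaged DNA during nucleotide excision and crosslink repair, and mice short of it age prematurely. The liver answers scarce food by releasing and burning fatty acids, largely under the nuclear receptor PPARalpha and its partner CREB3L3, and by lowering the synthesis of fat and sterols. Growth hormone acts on the liver through STAT5, and its pulse pattern sets a group of enzymes that differ between male and female rodents; these are called male-biased and female-biased below. Bulk liver RNA holds several cell types, and fewer cells of a type cannot be told apart from less RNA per cell.

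Ercc1 itself was checked first. Its probe set read 6.51, 6.60, 6.53, 6.62 and 6.44 in the wild type controls and 6.36, 6.04, 6.09, 6.14 and 6.13 in the wild type restricted animals. The progeroid controls read 5.31, 5.27, 5.14, 5.55 and 5.24 and the progeroid restricted animals 5.0, 4.49, 5.08, 4.71 and 4.71, so that no progeroid array reached the lowest wild type array. The gene fell with restriction in both genotypes, by 0.51 in progeroid and by 0.39 in wild type livers, and its interaction was -0.12 ± 0.14 (SE; adjusted p = 0.758). Values within a group are listed in the order of the animal numbers, 401 to 405 and 421 to 425 for wild type controls and wild type restricted animals, 321, 323, 325, 326 and 327 for progeroid controls, and 362, 365, 366, 368 and 369 for progeroid restricted animals.

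Arrays were alike in general: correlations between 2 arrays lay between 0.979 and 0.997, and no array was a copy of another. None of the 14 measured hepatocyte markers had a called interaction in the limma fit, although 2 had an unadjusted p under 0.05, and the hepatocyte enzyme Cyp2e1 averaged between 13.78 and 13.93 in the 4 groups. The Gapdh 3′ minus 5′ probe set difference, which grows as RNA breaks down, averaged 0.66 ± 0.06 in wild type controls and 0.76 ± 0.12 in wild type restricted animals (SD, n = 5). It averaged 0.93 ± 0.28 in progeroid controls and 0.81 ± 0.24 in progeroid restricted animals, with a range of 0.64 to 1.38 in the controls. With this difference as a covariate, 137 genes had a called interaction, 126 of them among the 240. Of 81 called genes named in these results 51 kept their call with it.

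The interaction was mostly a weaker response in progeroid livers. Restriction changed 3842 genes in wild type livers, of which 1696 rose (9.92% of all genes) and 2146 fell (12.6%). It changed 2053 genes in progeroid livers, of which 1186 rose (6.94%) and 867 fell (5.07%). Across all genes the 2 diet effects, which share no array, had a Pearson correlation of 0.701, with a standard deviation of 0.385 in wild type and 0.287 in progeroid; this is a description across genes, which are not independent. Among the 240 called genes the diet effect was larger in size in wild type for 175 and larger in progeroid for 65; over all genes it was larger in wild type for 57.3%. The interaction was positive for 176 genes (1.03% of all genes) and negative for 64 (0.374%). Its median over all genes was 0.0178. At least a 2-fold interaction was reached by 66 called genes, 48 positive and 18 negative. Without a correction for multiple tests, 2430 genes had a p under 0.05.

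The 240 genes were sorted into classes by the calls of their 2 diet effects. Over all genes 3842 had a called diet effect in wild type and 2053 in progeroid, and 1225 had both. Calls in wild type alone were thus the more frequent over all genes too. The largest class of the 240 held 140 genes with a called diet effect in wild type and not in progeroid. Of these 97 fell and 43 rose in wild type. A second class of 46 had a called effect in progeroid and not in wild type, and 40 of these rose in progeroid. A called effect of the same sign in both genotypes was found for 35 genes, 23 that fell and 12 that rose. Called effects of opposite sign were found for 17 genes, and 2 genes had a called effect in neither. Over all genes 1208 had called effects of the same sign and 17 of opposite sign, so all of the latter were among the 240. Opposite called effects make a called interaction likely, so the size of that class follows from how the genes were picked. The genotype difference was narrower under restriction than on control diet for 84 called genes and wider for 156.

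**Figure D1:**
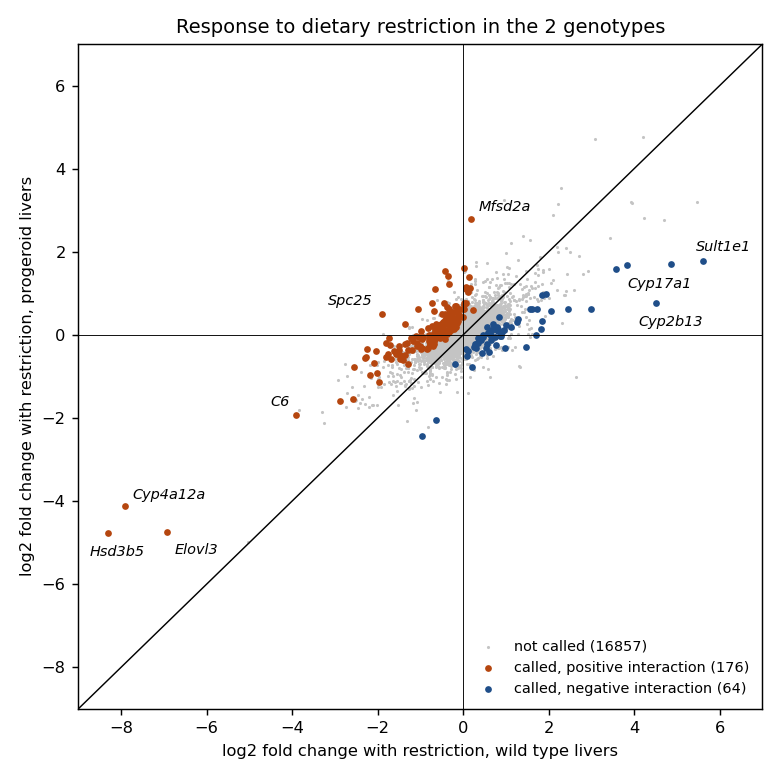
Each point is 1 of 17097 genes, with its log2 fold change with restriction in wild type livers (horizontal) against that in progeroid livers (vertical), 5 animals a group; the diagonal marks equal responses. The 176 genes with a positive called interaction lie above the diagonal and the 64 with a negative one below it, with Cyp4a12a, Hsd3b5 and Elovl3 lower in both genotypes and Sult1e1 higher in both.

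The number of called genes depended on single animals. It was 103 without wild type restricted animal 423 and 490 without wild type restricted animal 421. Leaving out progeroid restricted animal 362 gave 386. The count was also more than 1.5 times lower without animals 321 (146), 366 (146), 368 (143), 369 (129), 401 (138), 403 (148) or 424 (149). Of those 81 genes, 41 kept their call whichever animal was left out. On a linear in place of the log2 scale, which compares absolute and not proportional differences, and with a trended prior variance, 174 genes were called, 131 of them among the 240, and 45 of the 81 kept their call; values given below for the linear scale come from this fit, in which the scale and the prior were changed together.

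Sex-biased liver genes held several of the largest interactions. Most male-biased genes fell and most female-biased genes rose with restriction in both genotypes, with smaller median changes in progeroid livers. The labels do not name the sex of the animals, and whether the groups were alike in sex was not tested. Of 17 male-biased genes measured, all 17 fell in progeroid and 15 fell in wild type livers, with median diet effects of -1.25 and -2.10. Over all genes 5.07% fell in progeroid and 12.6% in wild type livers. The interaction of the male-biased genes was called positive for 5 and negative for 1, against 1.03% and 0.374% of all genes. Its median was 0.679 against 0.0178 over all genes. At an unadjusted p under 0.05 in limma 11 of these interactions were positive and 2 negative. Of 18 female-biased genes, 10 rose in progeroid and 14 rose and 1 fell in wild type livers, with median diet effects of 1.24 and 2.20. Over all genes 6.94% rose in progeroid, and 9.92% rose and 12.6% fell in wild type livers. The interaction of the female-biased genes was called negative for 3, against 0.374% of all genes, and positive for none. At an unadjusted p under 0.05 in limma 7 were negative and 3 positive, and the median was -0.82. Averaged over the list and set relative to the wild type control mean, the male-biased genes lay between -3.13 and -2.73 in the wild type restricted animals and between -2.73 and -1.50 in the progeroid restricted animals. The female-biased genes lay between 2.16 and 3.24 in the former and between 0.60 and 1.98 in the latter.

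Cyp4a12a, a male-specific fatty acid omega-hydroxylase, had the largest positive interaction. It read 11.37, 11.60, 12.12, 11.46 and 11.42 in wild type controls and 3.80, 3.32, 3.54, 4.13 and 3.62 in wild type restricted animals. Progeroid controls read 9.82, 11.11, 10.79, 11.22 and 10.47 and progeroid restricted animals 5.92, 6.45, 5.56, 8.48 and 6.43. Every restricted animal was below every control of its genotype, and the 2 restricted groups did not overlap. The diet effect was -7.91 in wild type and -4.12 in progeroid livers, a difference of 3.80 ± 0.54 (SE; limma, adjusted p = 0.00192; 0.0674 on the linear scale), and its probe set may also read near-identical family members. Hsd3b5, a male-biased 3-ketosteroid reductase, read 12.35, 12.28, 12.33, 12.36 and 12.31 in wild type controls and 4.86, 4.26, 3.70, 3.90 and 3.34 under restriction. In progeroid livers it read 11.34, 12.27, 11.62, 11.92 and 11.68 in controls and 4.51, 7.02, 6.59, 9.60 and 7.25 under restriction, so that the progeroid restricted animals spread over a range in which 1 of them fell among the wild type restricted animals. Its interaction was 3.55 ± 0.77 (adjusted p = 0.0253), and the call was lost without animal 369 (adjusted p = 0.0522) or 423 (0.0551). Elovl3, an elongase of very long fatty acids, fell by 6.92 in wild type and by 4.74 in progeroid livers (interaction 2.18 ± 0.47, adjusted p = 0.0253). That call was lost without animal 423 (adjusted p = 0.0551), with the Gapdh covariate (0.0585) and on the linear scale (0.568). Wild type restricted means of Cyp4a12a (3.68), Hsd3b5 (4.01) and Elovl3 (4.83) were under 5, which is dim on this scale, where background compresses differences.

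Members of the terminal complement complex, the pore that is built on target membranes, are male-biased in mouse liver and showed the same pattern. C6 read 10.57, 10.53, 10.63, 10.40 and 10.70 in wild type controls and 6.39, 7.20, 6.86, 6.98 and 5.84 under restriction. Progeroid livers read 10.36, 11.34, 11.26, 11.43 and 10.73 and 8.47, 9.24, 8.96, 10.01 and 8.75, higher under restriction than every wild type restricted animal. It fell by 3.91 and 1.94 in the 2 genotypes (interaction 1.97 ± 0.38, adjusted p = 0.0135). On the linear scale the sign turned, to -171 units of linear signal (adjusted p = 0.842); progeroid controls averaged 11.03 ± 0.46 against 10.56 ± 0.11 in wild type controls. C8a fell by 2.87 in wild type and by 1.59 in progeroid livers (interaction 1.29 ± 0.30, adjusted p = 0.0339). C9, whose product closes the pore, fell by 2.01 and by 0.92 (interaction 1.09 ± 0.19, adjusted p = 0.00781), and C8b by 2.57 and 1.55 (interaction 1.02 ± 0.25, adjusted p = 0.0496). C8b and C9 were the 2 called members among 22 measured complement and coagulation genes, against 1.03% of all genes called positive. That list, with a median interaction of 0.00393, does not hold C6 and C8a, which were counted with the male-biased genes. The call of C8a was lost without any 1 of 13 animals (adjusted p to 0.0698) and that of C8b without any 1 of 19 (to 0.096). On the linear scale C8a, C8b and C9 were not called (adjusted p 0.194, 0.756 and 0.143). Selenbp2, a selenium-binding protein, was the only male-biased gene with a called negative interaction. It fell in progeroid livers by 0.52 and had a diet effect of 0.08 in wild type (interaction -0.60 ± 0.15, adjusted p = 0.0496). Its call was lost without any 1 of 16 animals (adjusted p to 0.0936).

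Among female-biased genes Cyp2b13, a steroid- and drug-metabolising cytochrome P450, read 3.68, 3.67, 3.52, 3.74 and 3.59 in wild type controls and 9.33, 6.47, 7.67, 7.51 and 9.81 under restriction. Progeroid livers read 3.52, 3.41, 3.59, 3.48 and 3.26 and 3.92, 3.64, 5.72, 3.70 and 4.14. Every wild type restricted animal was above every progeroid restricted one. The diet effect was 4.52 in wild type and 0.77 in progeroid livers, where it did not pass the test (adjusted p = 0.318), and the interaction was -3.75 ± 0.65 (adjusted p = 0.00747). Cyp17a1, which makes androgen precursors, read 5.66, 6.39, 6.36, 5.64 and 7.23 in wild type controls and 11.19, 10.70, 11.31, 11.11 and 11.23 under restriction. In progeroid livers it read 7.06, 5.39, 4.90, 4.72 and 6.40 and 8.92, 8.42, 6.90, 5.79 and 6.93, so that the progeroid groups overlapped and the wild type groups did not. It rose in both genotypes, by 4.85 and 1.70 (interaction -3.15 ± 0.70, adjusted p = 0.0274), and the call was lost without any 1 of 8 animals (adjusted p to 0.0596) and with the Gapdh covariate (0.0547). Slc22a26, an organic anion transporter, rose by 3.0 in wild type and had a diet effect of 0.62 in progeroid livers (interaction -2.38 ± 0.53, adjusted p = 0.0269). Its call was lost without animal 365 (adjusted p = 0.0504), 368 (0.0557), 369 (0.0597), 401 (0.0538) or 403 (0.0512). For Cyp2b13 and Slc22a26 every group mean but that of the wild type restricted animals was under 5, which is dim on this scale. Cish, the STAT5-driven inhibitor of growth hormone signalling, had an estimate of -2.05 ± 0.72 that did not pass (adjusted p = 0.18), with wild type controls between 5.18 and 8.96. None of the 16 measured genes of STAT5 feedback and the growth hormone axis was called in limma (1 positive and 1 negative at an unadjusted p under 0.05).

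**Figure D2:**
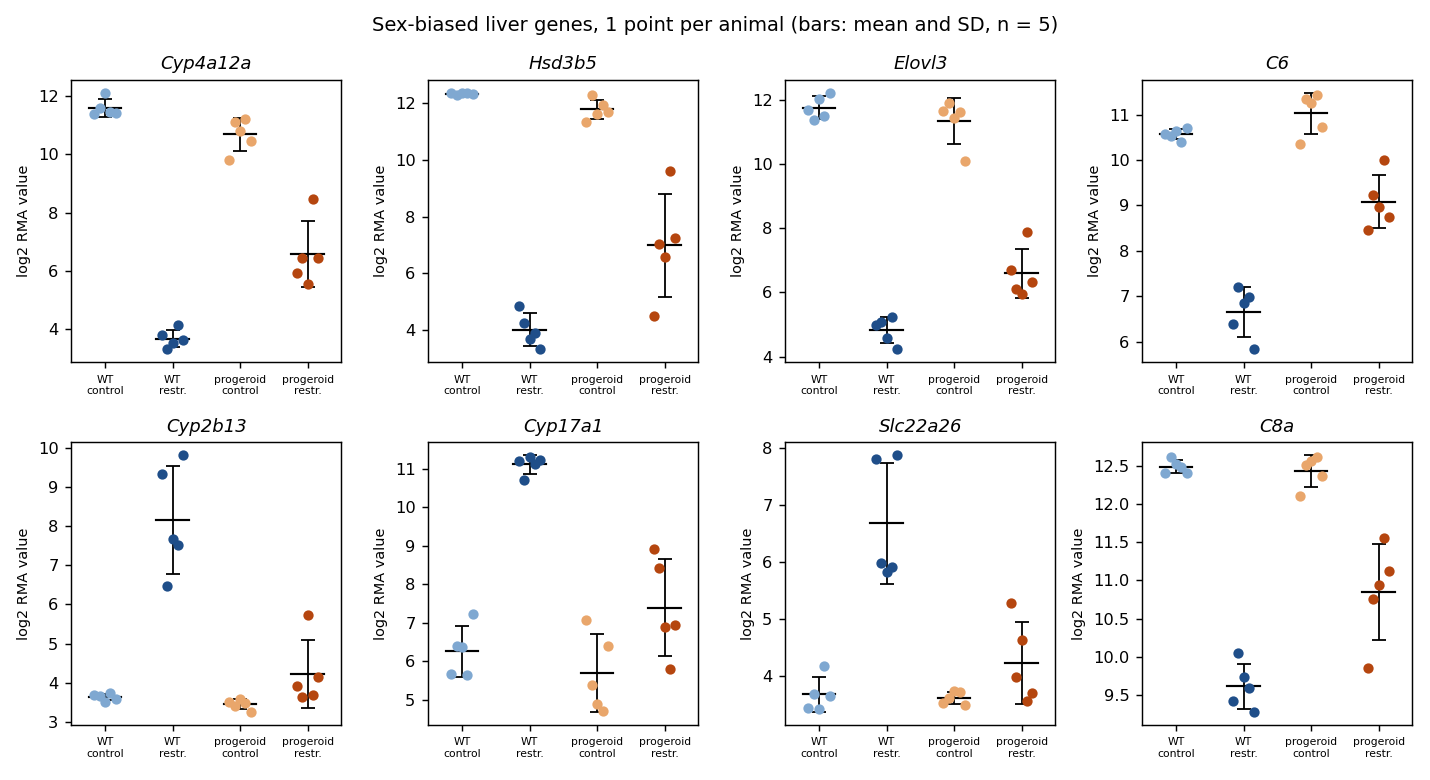
Log2 RMA values of 8 sex-biased liver genes in each of the 20 animals, by group; bars give the mean and SD of 5 animals. In the wild type restricted animals Cyp4a12a, Hsd3b5, Elovl3, C6 and C8a lie lowest of the 4 groups and Cyp2b13, Cyp17a1 and Slc22a26 highest, while progeroid restricted means lie between.

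STAT5 binds inverted repeats of the form TTCNNNGAA, which reads the same on both strands. Promoter windows from 250 bases before to 50 after the gene start were taken from RefSeq (GRCm38.p6). Of the 9 sex-biased genes with a called interaction 6 had such a window, and 2 of these held the motif, C8a and Slc22a26. Of all 27025 genes with a window 9.55% held it, as did 6 of the 26 sex-biased genes with a window, called or not. A match is a description of the letters and not of binding. Both windows are shown because they belong to genes of opposite bias whose responses were both weaker in progeroid livers; capitals mark the motif, and both genes lie on the minus strand, at chr4:104876349-104876648 for C8a and chr19:7802618-7802917 for Slc22a26.
C8a: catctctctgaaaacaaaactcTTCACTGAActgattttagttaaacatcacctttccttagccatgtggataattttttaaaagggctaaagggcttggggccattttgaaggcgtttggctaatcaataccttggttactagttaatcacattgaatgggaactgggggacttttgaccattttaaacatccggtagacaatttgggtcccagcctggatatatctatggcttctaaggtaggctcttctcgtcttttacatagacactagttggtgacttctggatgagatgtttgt
Slc22a26: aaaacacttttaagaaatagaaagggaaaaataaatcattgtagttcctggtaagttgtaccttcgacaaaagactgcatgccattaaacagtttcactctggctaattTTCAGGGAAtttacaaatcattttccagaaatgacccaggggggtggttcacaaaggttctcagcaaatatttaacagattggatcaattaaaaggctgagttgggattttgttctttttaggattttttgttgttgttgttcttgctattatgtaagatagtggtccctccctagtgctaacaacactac
The motif began 228 bases before the start of C8a and 141 bases before that of Slc22a26. Other motifs were sought in the same windows. A direct repeat of AGGTCA spaced by 1 base was held by 0 of 9 called PPARalpha targets and 0.05% of all genes. An NRF2-type motif was held by 0 of 1 called NRF2 target or redox gene and 13.99% of all genes.

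Among genes of fatty acid oxidation and other PPARalpha targets, those that changed in progeroid livers rose, and most of those that changed in wild type livers fell. Of 28 measured, 10 rose and none fell in progeroid livers, whereas 2 rose and 9 fell in wild type livers. Over all genes 6.94% rose and 5.07% fell in progeroid, and 9.92% rose and 12.6% fell in wild type livers. The interaction was called positive for 9 and negative for none (17 positive and 0 negative at an unadjusted p under 0.05 in limma), against 1.03% of all genes called positive. Its median was 0.353. As a list average relative to the wild type control mean, progeroid controls lay between -0.40 and -0.102 and progeroid restricted animals between -0.015 and 0.524; the highest value belonged to animal 362, and the other 4 lay at or below 0.06. Wild type controls lay between -0.173 and 0.239 and wild type restricted animals between -0.175 and -0.026, and these 2 groups overlapped.

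Acot1, a cytosolic thioesterase that frees fatty acids from coenzyme A, read 7.89, 8.03, 8.53, 7.70 and 7.16 in wild type controls and 7.40, 7.20, 7.15, 7.81 and 8.01 under restriction. Progeroid controls read 6.31, 5.96, 5.51, 6.55 and 5.94 and progeroid restricted animals 8.29, 7.53, 7.39, 6.76 and 7.32. The progeroid controls were below every wild type animal, and under restriction the progeroid animals overlapped the wild type range. It rose by 1.41 in progeroid livers and had a diet effect of -0.35 in wild type (interaction 1.76 ± 0.37, adjusted p = 0.0231). Acot2, its mitochondrial relative, gave 1.55 ± 0.34 (adjusted p = 0.0253) from a probe set that can match near-identical copies, and its other, dim probe set gave 0.35 (adjusted p = 0.524), so Acot1 and Acot2 may not be independent readings. Both calls were lost without wild type restricted animal 423 (adjusted p 0.0517 and 0.0551), with the Gapdh covariate (0.0536 and 0.0547) and on the linear scale (0.115 and 0.103). Aldh3a2, which oxidises fatty aldehydes, rose by 1.13 in progeroid livers and had a diet effect of 0.17 in wild type (interaction 0.97 ± 0.19, adjusted p = 0.0147).

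Creb3l3, a membrane-bound transcription factor that works with PPARalpha in fasting, responded in wild type livers. It read 10.65, 10.83, 10.71, 10.64 and 10.43 in controls and 9.85, 9.53, 9.37, 9.50 and 9.44 under restriction, with no overlap. In progeroid livers it read 9.98, 10.43, 10.50, 10.70 and 10.41 and 10.32, 10.16, 10.39, 10.56 and 10.48, so that the restricted animals lay within the range of the controls. It fell by 1.11 in wild type, its diet effect in progeroid was -0.02, and the interaction was 1.09 ± 0.16 (adjusted p = 0.00335). Cpt2, the inner carnitine acyltransferase of mitochondria, fell by 0.69 in wild type and had a diet effect of -0.12 in progeroid (interaction 0.56 ± 0.12, adjusted p = 0.0253). Its call was lost without animal 368 (adjusted p = 0.0507), 403 (0.05) or 423 (0.0551). The calls of Creb3l3 and Aldh3a2 held under every alternative that tested them.

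Several peroxisomal enzymes lay among the called genes; apart from those in the oxidation list they were picked after their values were seen. Decr2, a peroxisomal dienoyl-CoA reductase, read 10.17, 9.75, 9.93, 10.14 and 9.84 in wild type controls and 9.58, 9.66, 9.53, 9.29 and 9.76 under restriction. Progeroid controls read 9.66, 9.94, 9.83, 10.02 and 9.64 and progeroid restricted animals 10.45, 10.22, 10.38, 10.23 and 10.09, above every progeroid control. It fell by 0.40 in wild type and rose by 0.45 in progeroid livers (interaction 0.86 ± 0.15, adjusted p = 0.00664). Eci2, an enoyl-CoA isomerase, likewise fell by 0.42 and rose by 0.50 (interaction 0.91 ± 0.17, adjusted p = 0.00924). Acot12, which splits acetyl-CoA and is not counted as peroxisomal, was also picked after its values were seen. It fell by 0.31 in wild type and rose by 0.37 in progeroid livers. Acaa1a, a peroxisomal thiolase, fell by 0.57 in wild type and had a diet effect of 0.23 in progeroid (interaction 0.80 ± 0.14, adjusted p = 0.00664). Its probe set can share probes with Acaa1b, whose interaction was 0.77 ± 0.19 (adjusted p = 0.0427) and whose call was lost without any 1 of 15 animals (to 0.0833).

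Amacr, the racemase of branched-chain and bile acid intermediates, fell by 0.69 in wild type and had a diet effect of 0.01 in progeroid livers (interaction 0.70 ± 0.11, adjusted p = 0.00452). Lonp2, a peroxisomal protease, fell by 0.96 and by 0.31, and Tysnd1, a protease that processes peroxisomal enzymes, fell by 0.79 in wild type with -0.09 in progeroid. Other probe sets of Lonp2 gave smaller interactions of 0.12 and 0.27 that did not pass in limma (adjusted p 0.916 and 0.389). With the mean of its probe sets Lonp2 was not called (interaction 0.35, adjusted p = 0.204). Dhrs4, a peroxisomal carbonyl reductase, fell by 0.54 in wild type with 0.09 in progeroid. Pex11a, which promotes peroxisome division, rose by 0.49 in progeroid livers with -0.36 in wild type, where it did not pass (adjusted p = 0.0544). Slc27a2, a very long chain acyl-CoA synthetase, fell by 0.38 in wild type, and Scp2, the sterol carrier thiolase, by 0.42; their interactions were 0.44 ± 0.10 and 0.31 ± 0.07. The calls of Slc27a2 and Scp2 were lost without any 1 of 7 and any 1 of 17 animals (adjusted p to 0.0553 and 0.0852), and that of Pex11a without animal 401 (adjusted p = 0.0513) or 423 (0.0551). All 3 were lost with the Gapdh covariate (0.0517, 0.0547 and 0.0581).

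Of 20 measured genes of fat uptake and lipid droplets 4 had a called interaction, all positive, against 1.03% of all genes called positive, and 16 did not; the list median was 0.25. Of the 4, Fitm1, Fitm2 and Plin2 act in droplets and Mfsd2a in lipid uptake. Fitm1, a membrane protein that helps droplets form, read 8.05, 8.27, 9.06, 8.52 and 8.35 in wild type controls and 6.51, 6.39, 5.96, 6.45 and 5.69 under restriction. Progeroid livers read 8.50, 8.53, 7.82, 8.29 and 8.30 and 8.11, 7.82, 7.95, 8.07 and 7.85, all above the wild type restricted range. It fell by 2.25 in wild type, with a diet effect of -0.33 in progeroid (interaction 1.92 ± 0.25, adjusted p = 0.000645), and kept its call under every alternative that tested it. Its relative Fitm2 fell by 0.62 in wild type (interaction 0.84 ± 0.19, adjusted p = 0.0279), a call lost without any 1 of 11 animals (to 0.0583). Plin2, a droplet coat protein, read 12.61, 12.69, 12.92, 12.30 and 12.71 in wild type controls and 11.54, 11.22, 11.07, 11.42 and 11.14 under restriction. It read 12.37, 12.70, 12.33, 12.69 and 11.96 in progeroid controls and 12.74, 11.68, 11.90, 12.31 and 12.36 in progeroid restricted animals, which overlapped. It fell by 1.37 in wild type (interaction 1.16 ± 0.24, adjusted p = 0.0231), and the call was lost without animal 423 (adjusted p = 0.0517), with the Gapdh covariate (0.0508) and on the linear scale (0.074).

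Mfsd2a, a transporter of lysophospholipids that rises in the fasted liver, was the fourth. It read 9.96, 10.38, 9.98, 9.55 and 9.41 in wild type controls and 11.11, 10.21, 9.28, 9.72 and 9.92 under restriction. Progeroid controls read 7.11, 6.02, 5.34, 7.24 and 7.94, all below every other animal, and progeroid restricted animals 9.49, 10.04, 9.12, 8.75 and 10.26. It rose by 2.80 in progeroid livers, with a diet effect of 0.19 in wild type (interaction 2.61 ± 0.58, adjusted p = 0.0268). The call was lost without any 1 of 8 animals (adjusted p to 0.0586) and on the linear scale (0.554).

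**Figure D3:**
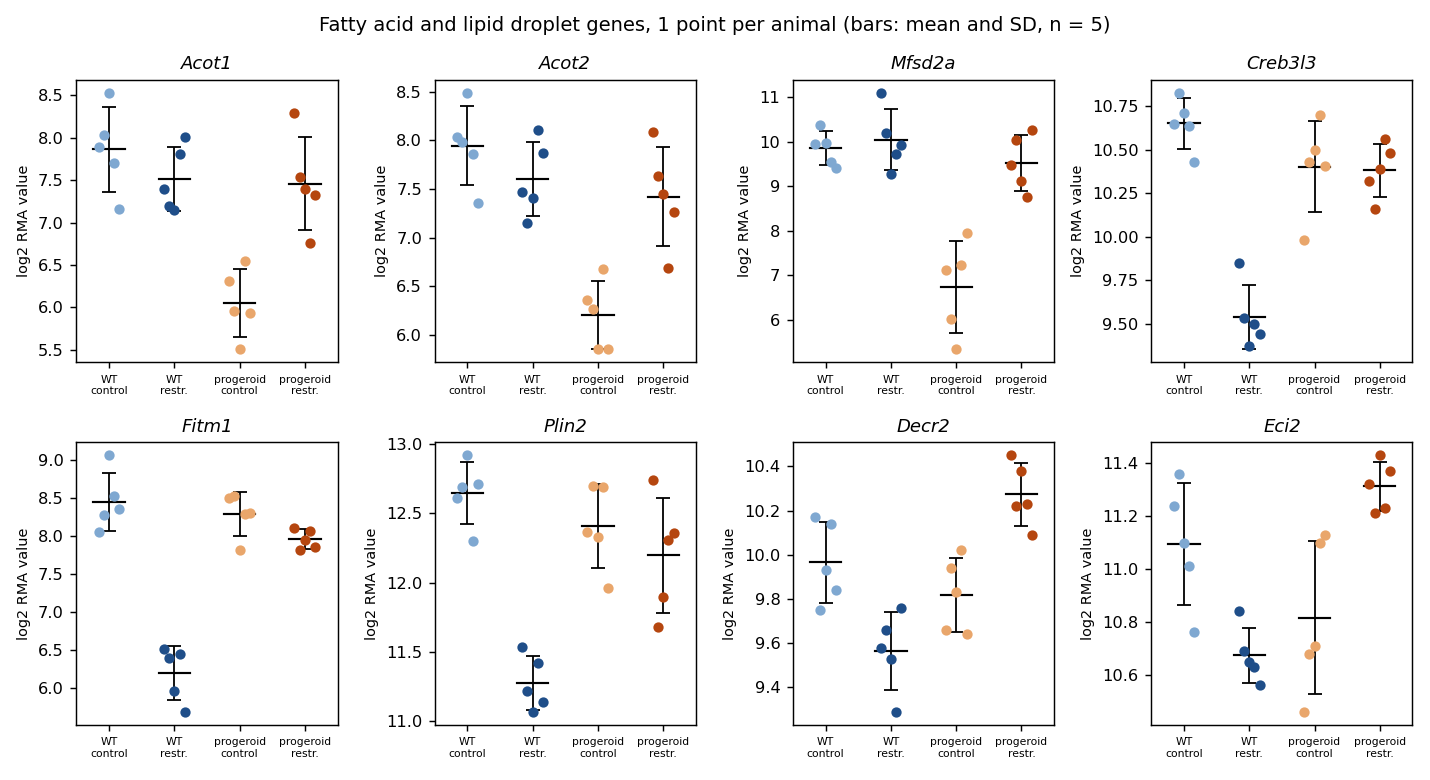
Log2 RMA values of 8 genes of fatty acid oxidation and lipid droplets in each of the 20 animals, by group; bars give the mean and SD of 5 animals. Acot1, Acot2 and Mfsd2a are lowest in progeroid controls and reach the wild type range under restriction, while Creb3l3, Fitm1 and Plin2 are lowest in wild type restricted animals.

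No measured member of the lists of fatty acid and cholesterol synthesis had a called interaction. Of 21 measured genes of fatty acid synthesis and carbohydrate-driven transcription, 6 rose and none fell in wild type livers, and none rose and 1 fell in progeroid livers. Over all genes 9.92% rose and 12.6% fell in wild type, and 6.94% rose and 5.07% fell in progeroid livers. The list's median interaction was -0.699 and none was called in limma (10 negative and 1 positive at an unadjusted p under 0.05). The smallest adjusted p was that of Pgd, an enzyme of the pentose phosphate pathway, at -1.43 ± 0.36 (adjusted p = 0.0527). Relative to the wild type control mean the list average lay between 0.404 and 0.715 in wild type restricted animals. It lay between -0.78 and 0.418 in progeroid controls and between -0.841 and 0.349 in progeroid restricted animals, so the progeroid groups overlapped widely. The 18 cholesterol synthesis genes had a median of -0.693 with 17 of 18 estimates negative and none called (2 negative and 0 positive at an unadjusted p under 0.05), Dhcr7, the last reductase of the pathway, at -1.07 ± 0.43 (adjusted p = 0.25). Ppp1r3g, which directs glycogen synthesis after feeding, rose by 3.24 in progeroid livers and had an interaction of 2.28 ± 0.58 that narrowly missed (adjusted p = 0.0532).

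Foreign-compound and steroid metabolism had called genes of both signs. Sult1e1, the sulfotransferase that inactivates estrogen, had the largest negative interaction. It read 4.57, 4.39, 4.56, 4.43 and 4.27 in wild type controls and 8.56, 11.0, 10.67, 9.34 and 10.66 under restriction. Progeroid controls read 8.83, 6.13, 8.01, 7.98 and 7.50, above every wild type control, and progeroid restricted animals 10.55, 9.78, 10.17, 7.96 and 8.83. It rose by 5.60 in wild type and by 1.77 in progeroid livers (interaction -3.84 ± 0.72, adjusted p = 0.0113), and was not called on the linear scale (0.459). Its wild type control mean of 4.44 was under 5, which is dim on this scale. Sult1e1 was the only called gene of 23 measured members of the conjugating enzyme list, against 0.374% of all genes called negative. That list does not hold Gal3st1, Nat8 and Sult2a8, which were also called. Of 22 cytochrome P450 enzymes and regulators 3 were called, all positive, against 1.03% of all genes called positive. The median of that list was 0.0942 and its lowest estimate -2.04. At an unadjusted p under 0.05 in limma 6 members were positive and 2 negative. Cyp2c29 rose by 0.69 in progeroid livers, from a mean of 11.91 ± 0.36 to 12.60 ± 0.11 (SD, n = 5), while wild type livers averaged 13.26 ± 0.14 and 13.08 ± 0.24 (interaction 0.88 ± 0.19, adjusted p = 0.026). Cyp2c55 and the periportal enzyme Cyp2f2 fell in wild type by 1.36 and 1.0, with 0.27 and -0.28 in progeroid (interactions 1.63 ± 0.35 and 0.73 ± 0.15, adjusted p 0.0245 and 0.0231). The calls were lost without animal 365 (adjusted p = 0.0504) or 423 (0.0573) for Cyp2c29 and without animal 369 (adjusted p = 0.0522) or 423 (0.0547) for Cyp2c55, and with the Gapdh covariate for Cyp2f2 (0.0527). Cyp2f2 was the only called gene of 10 periportal markers, and none of 10 pericentral markers was called (2 positive and 0 negative at an unadjusted p under 0.05 in limma).

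Further oxidising and conjugating enzymes, named after their values were seen, fell in both genotypes and less in progeroid livers. Aox3, an aldehyde oxidase, fell by 2.19 in wild type and by 0.98 in progeroid livers. Adh4, a retinol-oxidising alcohol dehydrogenase, fell by 1.48 and 0.50, and Cyp2c23, an arachidonic acid epoxygenase, by 1.48 and 0.58. Nat8, an acetyltransferase of cysteine conjugates, fell by 2.08 and 0.68, and Nox4, a hydrogen peroxide-forming oxidase, by 1.80 and 0.53. Their interactions ranged from 0.90 ± 0.21 for Cyp2c23 to 1.40 ± 0.24 for Nat8 (adjusted p 0.0346 and 0.00747). The call of Aox3 was lost without animal 369 (adjusted p = 0.0536) or 423 (0.0563) and that of Cyp2c23 without any 1 of 12 animals (adjusted p to 0.0696); on the linear scale Adh4, Cyp2c23 and Nat8 were not called (0.222, 0.303 and 0.305). Hsd3b4, a steroid dehydrogenase, went the other way and fell by 2.06 in progeroid livers (interaction -1.42 ± 0.36, adjusted p = 0.0497), a call lost without any 1 of 18 animals (to 0.0924).

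Gpx6, a glutathione peroxidase, was the only called gene among 26 measured NRF2 targets and redox enzymes, against 1.03% of all genes called positive. It read 4.59, 4.71, 4.79, 4.41 and 4.85 in wild type controls and 4.16, 4.67, 4.05, 3.91 and 4.46 under restriction. Progeroid controls read 5.50, 6.60, 6.18, 6.23 and 5.59 and progeroid restricted animals 6.84, 7.85, 8.21, 7.54 and 7.40, above every progeroid control. It rose by 1.55 in progeroid livers with a diet effect of -0.42 in wild type (interaction 1.97 ± 0.31, adjusted p = 0.00522), a call kept under every alternative that tested it. Both wild type groups averaged under 5 (4.67 and 4.25), which is dim on this scale.

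Of 16 measured genes of iron and heme 2 had a called interaction, both negative, against 0.374% of all genes called negative, while 10 of the 16 estimates were positive and the list median was 0.0526. Tfrc, the transferrin receptor that takes up iron, read 7.41, 7.93, 7.54, 8.25 and 8.06 in wild type controls and 8.68, 9.73, 9.34, 9.58 and 9.21 under restriction, without overlap. Progeroid livers read 9.30, 8.13, 7.97, 7.54 and 8.78 and 8.54, 8.04, 7.64, 7.64 and 8.43. It rose by 1.47 in wild type and had a diet effect of -0.28 in progeroid (interaction -1.76 ± 0.39, adjusted p = 0.0275), a call lost without any 1 of 8 animals (to 0.0571) and with the Gapdh covariate (0.0699). Its 2 other probe sets, both dim, gave -0.58 and -0.61 (adjusted p 0.0907 and 0.0608). Hamp2, a relative of the iron hormone hepcidin, read 11.17, 11.29, 10.27, 10.66 and 11.34 in wild type controls and 13.36, 12.20, 12.55, 12.41 and 13.34 under restriction. In progeroid livers it read 10.88, 10.51, 10.90, 10.90 and 11.32 and 10.40, 11.12, 11.27, 11.14 and 11.27, all within the wild type control range. It rose by 1.83 in wild type (interaction -1.69 ± 0.34, adjusted p = 0.0197). Its probe set can match related transcripts such as Hamp, and a dim second probe set gave -0.19 (adjusted p = 0.429), which leaves no call without probe sets of that kind (0.438). Lcn2, an iron-sequestering protein of the acute phase, was the only called gene of 23 acute phase genes: it rose by 2.06 in wild type, while progeroid controls averaged 8.15 ± 0.33 and progeroid restricted animals 8.72 ± 0.52 (interaction -1.50 ± 0.36, adjusted p = 0.0413). That call was lost without any 1 of 13 animals (to 0.0802), and on the linear scale the sign turned (adjusted p = 0.907).

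Of 25 measured interferon-response genes, 12 fell and none rose in wild type, and 1 rose and 3 fell in progeroid livers. Over all genes 9.92% rose and 12.6% fell in wild type, and 6.94% rose and 5.07% fell in progeroid livers. Of the 25 interferon interactions 22 were positive, with a median of 0.444. Called were 2, both positive, against 1.03% of all genes called positive. At an unadjusted p under 0.05 in limma 10 were positive and 0 negative. The list average lay between -0.13 and 0.23 in wild type controls and between -0.738 and -0.22 in wild type restricted animals, relative to the wild type control mean. It lay between 0.551 and 0.849 in progeroid controls and between 0.254 and 0.819 in progeroid restricted animals, so that every progeroid animal lay above every wild type animal; this list level was not tested. Rsad2, the antiviral enzyme viperin, read 6.67, 6.85, 7.83, 7.14 and 7.05 in wild type controls and 5.85, 5.33, 5.13, 5.86 and 5.91 under restriction. Progeroid livers read 7.80, 8.04, 8.18, 8.25 and 7.98 and 7.25, 7.94, 7.52, 7.94 and 7.82. It fell by 1.49 in wild type (interaction 1.14 ± 0.27, adjusted p = 0.0413). Gbp3, an interferon-induced GTPase, rose by 0.67 in progeroid livers (interaction 1.05 ± 0.26, adjusted p = 0.0492). These calls were lost without any 1 of 12 and any 1 of 15 animals (adjusted p to 0.0817 and 0.101), with the Gapdh covariate (0.0752 and 0.0969) and on the linear scale (0.646 and 0.0728). Irf5, an interferon regulatory factor of macrophages and other cells outside the list, fell by 1.77 in wild type, with -0.46 in progeroid (interaction 1.30 ± 0.23, adjusted p = 0.00754).

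Of 14 markers of Kupffer cells, the resident macrophages, none had a called interaction in limma (2 positive and 0 negative at an unadjusted p under 0.05); 13 of 14 estimates were positive, with a median of 0.294. With restriction 4 of the 14 fell and none rose in wild type, and 1 rose and none fell in progeroid livers. Over all genes 9.92% rose and 12.6% fell in wild type, and 6.94% rose and 5.07% fell in progeroid livers. The list average of the 14 markers lay between -0.185 and 0.255 in wild type controls and between -0.582 and -0.047 in wild type restricted animals. It lay between 0.054 and 0.648 in progeroid controls and between 0.107 and 0.869 in progeroid restricted animals. Adgre1, a macrophage surface marker, fell by 0.94 in wild type (interaction 0.57 ± 0.20, adjusted p = 0.173). Antigen presentation genes also had 15 of 16 positive estimates, a median of 0.318 and no call (5 positive and 1 negative at an unadjusted p under 0.05). The part of macrophage number in the interferon result was not tested. All 14 lymphocyte markers and 8 of 9 neutrophil and monocyte markers had a mean under 5, which is dim on this scale, and none was called (1 and 0 at an unadjusted p under 0.05).

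None of 29 measured members of the cell cycle and replication list had a called interaction (median 0.0606; 3 positive and 2 negative at an unadjusted p under 0.05 in limma; 17 have a mean under 5). Spc25, outside that list, is a component of the NDC80 complex that ties chromosomes to the spindle. It read 7.65, 7.13, 7.63, 7.11 and 6.99 in wild type controls and 6.04, 5.33, 5.15, 4.94 and 5.55 under restriction. Progeroid controls read 7.28, 7.62, 6.80, 7.47 and 7.50 and progeroid restricted animals 8.05, 7.25, 7.98, 7.94 and 7.96, all above every wild type restricted animal. It fell by 1.90 in wild type with a diet effect of 0.50 in progeroid (interaction 2.40 ± 0.28, adjusted p = 0.000189), and kept its call under every alternative that tested it. A further 4 called genes of cell division were named after their values were seen. Trip13, an ATPase of the spindle checkpoint, fell by 0.72 in wild type and rose by 0.77 in progeroid livers, at values between 3.38 and 5.40, which is dim on this scale. Nek2, a centrosome kinase, and Stmn1, a microtubule-destabilising protein, fell in wild type by 1.71 and 1.62, with -0.23 and -0.38 in progeroid. Ccnd3, a G1 cyclin, fell by 0.36 in wild type and rose by 0.35 in progeroid (interaction 0.71 ± 0.12, adjusted p = 0.00664). Without probe sets that can match several transcripts, Trip13 and Stmn1 were not called (adjusted p 0.519 and 0.6), and with the mean of a gene's probe sets Ccnd3 and Stmn1 were not (0.298 and 0.0958).

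The 22 measured genes of nucleotide excision and crosslink repair had a median interaction of 0.048 and no call in limma (4 positive and 0 negative at an unadjusted p under 0.05). Xpa, which verifies damage for excision, rose by 0.60 in progeroid livers (interaction 0.53 ± 0.17, adjusted p = 0.133). The 25 p53 targets had a median of 0.0282 and no call (1 positive and 2 negative), with Sesn1 at -0.54 ± 0.22 (adjusted p = 0.266). Repair genes outside these lists were called and are named after their values were seen. Nbn, a sensor of double-strand breaks, and Trp53bp1, which steers their repair, fell in wild type by 0.44 and 0.54, with 0.24 and 0.14 in progeroid. Alkbh2 and Nthl1, which remove damaged bases, fell in wild type by 0.72 and 0.56, with -0.01 and -0.01 in progeroid. Pot1a, a telomere-binding protein, rose by 0.64 in wild type (interaction -0.61 ± 0.11, adjusted p = 0.00664); progeroid controls and progeroid restricted animals averaged 6.77 ± 0.10 and 6.79 ± 0.02 (SD, n = 5). The call of Pot1a held under every alternative that tested it, whereas those of Nbn, Trp53bp1 and Alkbh2 were lost without any 1 of 12, 9 and 4 animals (to 0.0771, 0.0661 and 0.0573), and that of Nthl1 without animal 423 (adjusted p = 0.0517).

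The next 6 genes, of protein entry into and transport along the secretory pathway, were picked because their interactions were called and negative, and say nothing of the pathway as a whole. Srp54a, of the signal recognition particle, rose by 0.58 in wild type with 0.04 in progeroid, and Ssr1, of the translocon, rose by 0.36 with -0.21. Stt3a, the catalytic oligosaccharyltransferase subunit, rose by 0.43 and Surf4, a cargo receptor, by 0.47, with -0.11 and -0.01 in progeroid. Magt1, another oligosaccharyltransferase subunit, and Kdelr2, which retrieves resident proteins, fell by 0.70 and 0.33 in progeroid livers, with -0.20 and 0.07 in wild type. All 6 interactions lay between -0.57 ± 0.13 and -0.40 ± 0.10. Each call was lost without at least 2 single animals, with adjusted p to 0.103 for Surf4, and all 6 were lost with the Gapdh covariate (0.0557 to 0.0965). Averaging the probe sets of a gene also ended the calls of Stt3a (0.391), Srp54a (0.0723), Kdelr2 (0.0731) and Surf4 (0.0759). In the list of endoplasmic reticulum and integrated stress 16 of 25 estimates were negative, 9 were positive and none was called (7 negative and 2 positive at an unadjusted p under 0.05 in limma), Edem1, which clears misfolded proteins, at -0.46 ± 0.13 (adjusted p = 0.079).

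Several genes of other functions had large or precise interactions. Ociad2, a mitochondrial membrane protein, read 9.36, 9.30, 9.37, 9.38 and 9.55 in wild type controls and 7.26, 7.02, 7.08, 7.27 and 6.89 under restriction. Progeroid livers read 9.55, 9.75, 9.27, 9.68 and 9.48 and 8.48, 8.96, 9.08, 9.39 and 9.04. It fell by 2.29 and 0.55 (interaction 1.73 ± 0.18, adjusted p = 6.73e-05), and its second probe set gave 1.56 (adjusted p = 8.24e-05). Arsa, the lysosomal sulfatase that degrades sulfatides, averaged 8.81 ± 0.07 and 7.08 ± 0.24 in wild type and 8.11 ± 0.21 and 8.04 ± 0.28 in progeroid livers (interaction 1.65 ± 0.18, adjusted p = 7.67e-05). Gal3st1, the sulfotransferase that makes sulfatides, rose by 1.61 in progeroid livers with 0.02 in wild type (interaction 1.58 ± 0.24, adjusted p = 0.00348). Dpy19l3, a C-mannosyltransferase, fell by 1.81 in wild type, where controls averaged 6.36 ± 0.31. The other 3 groups averaged 4.56 ± 0.16, 4.80 ± 0.14 and 4.61 ± 0.19, all under 5, which is dim on this scale. Fam25c fell by 2.55 in wild type (interaction 1.77 ± 0.39, adjusted p = 0.0253), a call lost without animal 368 (adjusted p = 0.0524), 369 (0.0549), 403 (0.0509) or 424 (0.0527). Olig1, a transcription factor, and Ahnak, a large scaffold protein, fell in wild type by 1.05 and 1.21, with 0.63 and -0.07 in progeroid; Ahnak turned to -0.22 (adjusted p = 0.698) without probe sets that can match several transcripts.

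Pls1, an actin-bundling protein, was higher in progeroid than in wild type livers on both diets. It read 4.06, 4.37, 5.46, 4.59 and 5.03 in wild type controls and 5.90, 6.52, 6.81, 6.54 and 6.20 under restriction. In progeroid livers it read 8.46, 8.31, 7.68, 8.0 and 8.14 and 8.50, 8.15, 7.76, 8.17 and 8.02, all above the wild type restricted range. It rose by 1.69 in wild type, with a diet effect of 0.0 in progeroid (interaction -1.69 ± 0.31, adjusted p = 0.0103; 0.473 on the linear scale). Slc16a5, a monocarboxylate transporter, rose by 3.57 in wild type and by 1.58 in progeroid livers, from means of 4.33 ± 0.45 and 6.71 ± 0.63 (interaction -2.0 ± 0.37, adjusted p = 0.0113; 0.848 on the linear scale). Smoc2, a matricellular protein, rose by 2.45 in wild type (interaction -1.84 ± 0.43, adjusted p = 0.0362), a call lost without any 1 of 14 animals (to 0.0753). Slc2a4, the insulin-regulated glucose transporter GLUT4, rose by 1.85 in wild type. Wild type controls averaged 4.69 ± 0.24 and wild type restricted animals 6.54 ± 0.48. Progeroid groups averaged 4.61 ± 0.43 and 4.93 ± 0.20 (interaction -1.53 ± 0.29, adjusted p = 0.0134). Every group mean of Slc2a4 but that of the wild type restricted animals was under 5, which is dim on this scale. So were the wild type control means of Pls1 (4.70) and Slc16a5 (4.33). Slc1a5, a glutamine transporter, rose by 0.99 in wild type with -0.31 in progeroid. Foxa2, a hepatocyte transcription factor of the fasting response, rose by 0.61 in wild type with -0.42 in progeroid (interaction -1.03 ± 0.25, adjusted p = 0.0404), a call lost without any 1 of 13 animals (to 0.0815).

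Dnaic1, an axonemal dynein chain, was the reverse case, with the larger response in progeroid livers. It read 7.08, 7.82, 7.71, 7.70 and 7.50 in progeroid controls and 4.54, 5.28, 5.43, 5.39 and 5.02 under restriction, and 5.96, 5.33, 5.24, 4.81 and 5.39 and 4.73, 4.43, 4.20, 4.44 and 4.09 in the wild type groups. It fell by 2.43 in progeroid and by 0.97 in wild type livers (interaction -1.46 ± 0.27, adjusted p = 0.0113), and its second probe set gave -1.79 (adjusted p = 0.00957). Among the 17 genes with called effects of opposite sign, Pnldc1, a 3′ exonuclease that trims small RNAs, had the largest interaction. It read 5.77, 6.68, 6.93, 5.62 and 6.07 in wild type controls and 5.85, 5.40, 5.35, 5.46 and 5.69 under restriction. Progeroid livers read 5.62, 6.08, 5.68, 6.10 and 5.95 and 7.18, 6.56, 6.90, 6.88 and 7.44, without overlap. It fell by 0.66 in wild type and rose by 1.10 in progeroid (interaction 1.77 ± 0.30, adjusted p = 0.00664). Ccdc66, a microtubule-associated protein, had the largest negative one of the 17: it rose by 0.44 in wild type and fell by 0.43 in progeroid livers (interaction -0.88 ± 0.16, adjusted p = 0.00813).

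**Figure D4:**
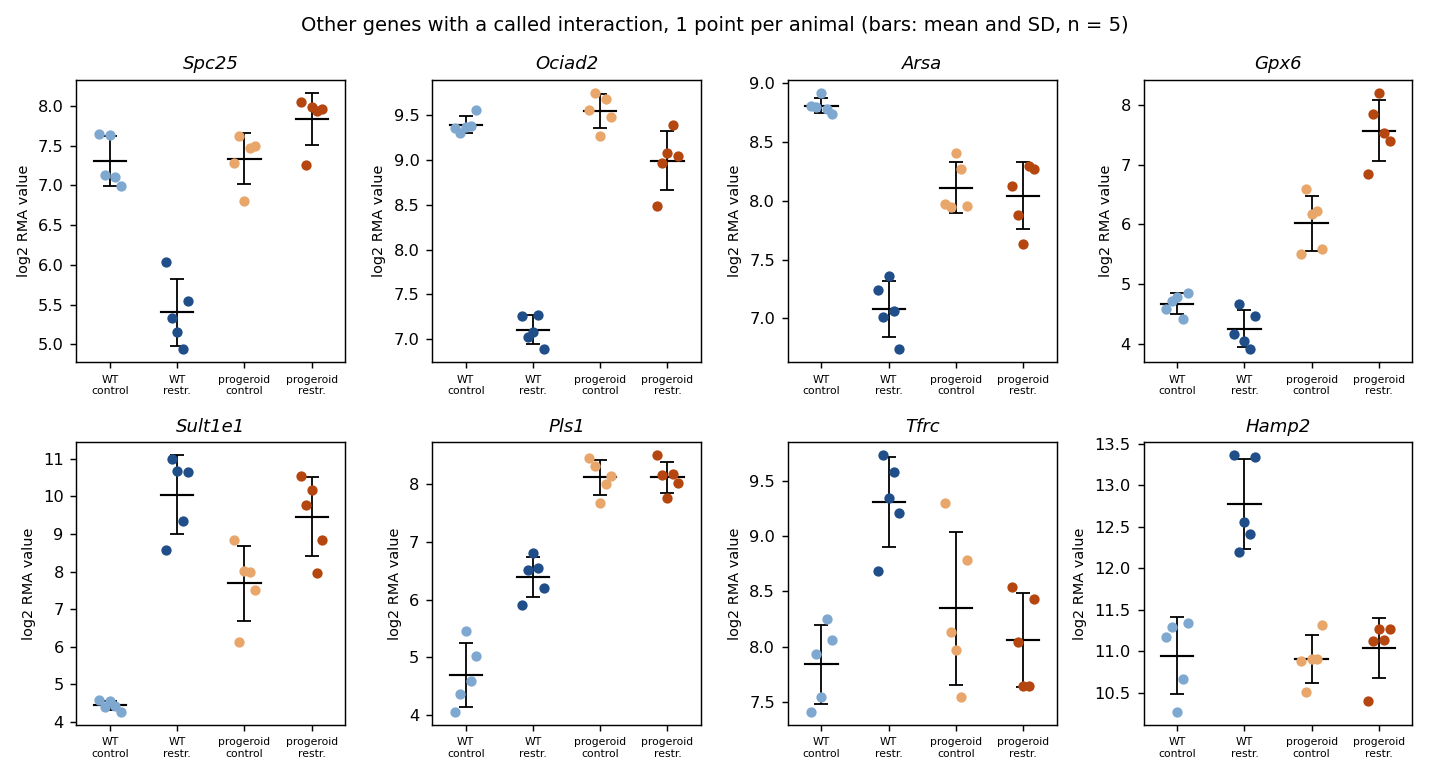
Log2 RMA values of 8 further genes with a called interaction in each of the 20 animals, by group; bars give the mean and SD of 5 animals. Spc25, Ociad2 and Arsa fall in the wild type restricted animals, and Pls1, Tfrc and Hamp2 rise there, while the progeroid means of Pls1 and Hamp2 stay nearly level between diets.

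Gene groups tied to feeding time had no called member. The core clock list (15 measured) had a median of -0.0604 and the list of clock outputs (14 measured) 0.223, with 2 positive and 1 negative, and 1 positive and 0 negative, at an unadjusted p under 0.05 in limma. Csnk1d, a clock kinase, and Gys2, liver glycogen synthase, had estimates of 0.33 ± 0.11 and 0.70 ± 0.22 (adjusted p 0.158 and 0.119). Heat shock genes (16 measured) had a median of 0.241, with 3 positive and 1 negative, and Hspb1 at 0.99 ± 0.34 (adjusted p = 0.168). Cytosolic ribosomal protein genes rose in wild type livers for 20 of 33 members and in progeroid livers for 1, against 9.92% and 6.94% of all genes. Their median interaction was -0.107, with 30 of 33 negative and none called. At an unadjusted p under 0.05 in limma 6 were negative, Rpl12 the strongest at -0.35 ± 0.14 (adjusted p = 0.25). Oxidative phosphorylation genes (34 measured) had a median of -0.00387 and 1 negative at that level.

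Lists of nutrient and bile acid metabolism likewise had no called member, with the brightest probe set standing for each gene. The 22 bile acid genes had a median of 0.181 (6 positive and 4 negative at an unadjusted p under 0.05 in limma), and Akr1d1, a reductase of bile acid synthesis, rose by 0.91 in wild type and 0.51 in progeroid livers (interaction -0.40 ± 0.11, adjusted p = 0.0623). A second probe set of Akr1d1, also bright, gave a larger interaction of -0.73 that passed over all probe sets (adjusted p = 0.0112). The 24 amino acid catabolism and urea cycle genes had a median of -0.0511 (1 positive and 2 negative), with Prodh, proline dehydrogenase, at -0.45 ± 0.16. The 17 apolipoprotein and lipoprotein assembly genes had a median of -0.014 (0 positive and 3 negative); Apoa4 rose by 1.66 in wild type (interaction -1.03 ± 0.31, adjusted p = 0.109). Autophagy and lysosome genes (19 measured) had a median of 0.144 (4 positive and 2 negative), with the kinase Ulk2 at 0.69 ± 0.20. Sirtuins and NAD enzymes (12 measured) had a median of 0.0522 (1 positive and 1 negative), with the mitochondrial deacetylase Sirt3 at 0.45 ± 0.15.

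**Figure D5:**
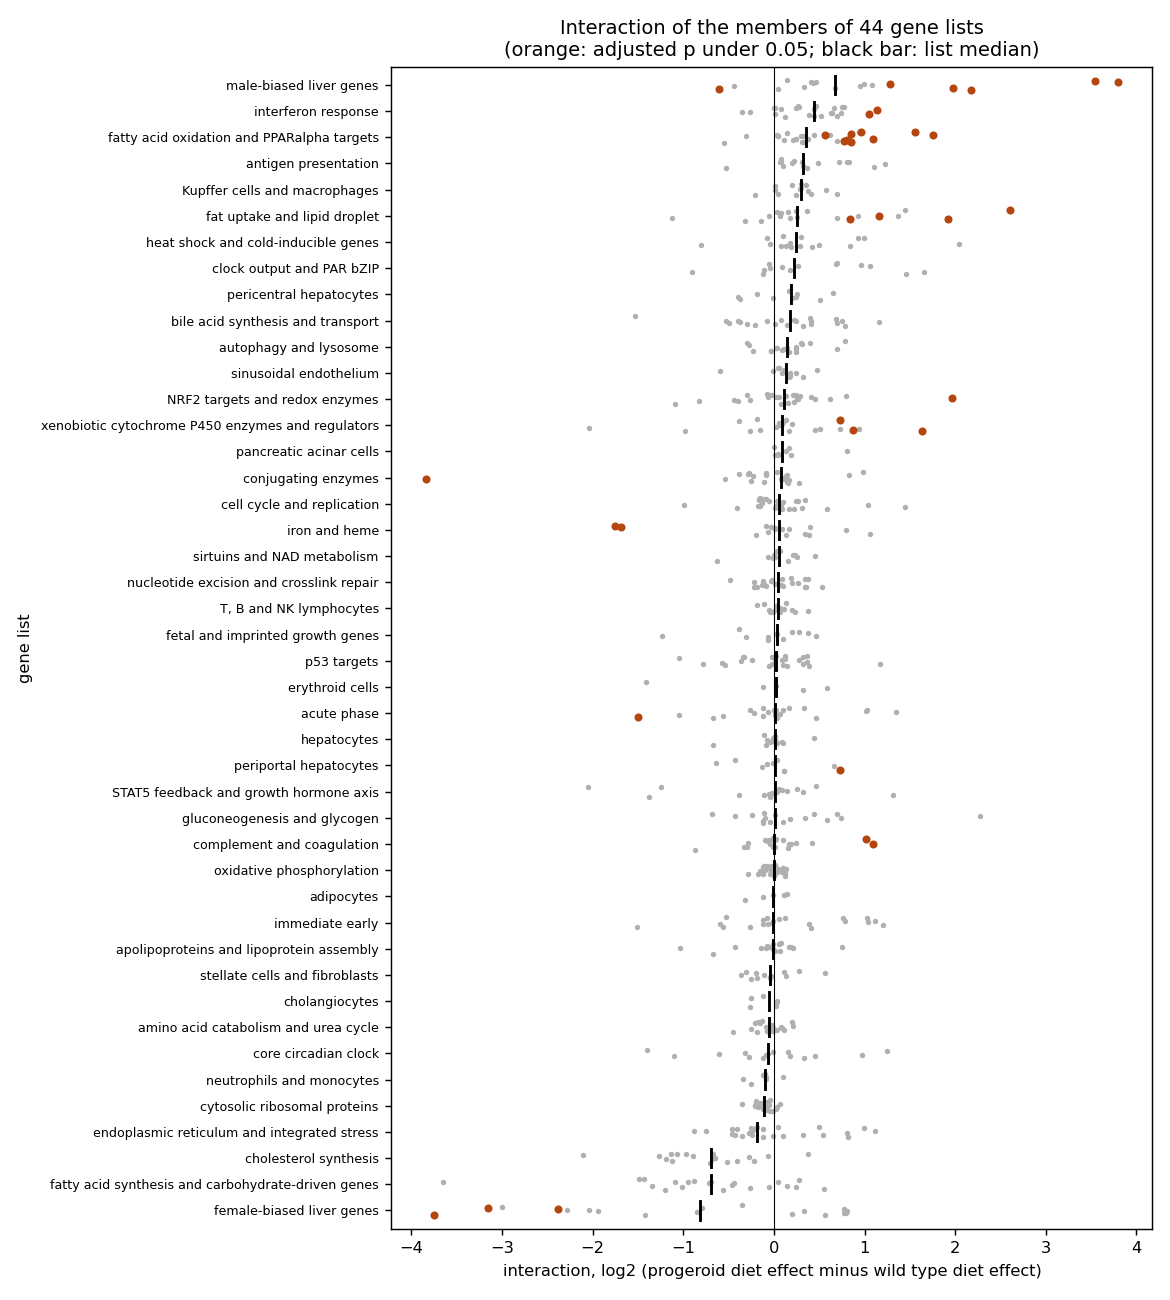
Interaction of each measured member of 44 gene lists (horizontal, log2), 1 row per list ordered by its median (black bar); orange points are called at an adjusted p under 0.05 over all 17097 genes. Male-biased, interferon response and fatty acid oxidation genes lie at the positive end, and female-biased, fatty acid synthesis and cholesterol synthesis genes at the negative end, and no member of the last 2 is orange.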

How the data were processed

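Liver RNA of 20 mice was measured on 1 Affymetrix mouse array each. The deposited values are log2 values made with RMA (background correction, quantile normalization and probe set summary), per the submitters' processing notes; RMA sets all arrays to one distribution, so an overall shift between groups would be removed. Array signal carries no read depth, and the number of animals limits the precision. Of 45141 probe sets, 28898 have 1 gene symbol in GEO's platform annotation, 551 several and 15588 none; the probe set with the highest mean stood for each of 17097 genes. A linear model of 4 group means was fitted with limma 3.58.1 in R 4.3.3 (lmFit, contrasts, eBayes), with two-sided moderated tests and Benjamini-Hochberg adjustment over all genes, and a call is an adjusted p under 0.05. The interaction fit was tried on simulated data with independent normal noise for each gene, without differences in array quality or correlation between genes. There it recovered 4% of genes changed 1.25-fold, 66% at 1.5-fold, 94% at 2-fold and 98% at 4-fold, with 9 false calls. These shares need not hold for the real arrays, whose count of calls changed with single animals. Named genes are the 12 most positive and 12 most negative called interactions without provisional symbols, up to 3 called members of each of 44 gene lists (or its member with the smallest adjusted p), called marker genes and Ercc1, plus 46 genes chosen after their values were seen. The lists, members and tests were chosen with earlier results of these data known. List averages are means over members of the log2 value minus the wild type control mean. Promoter windows are from RefSeq, GRCm38.p6. Alternatives covered the choice of probe set, centring, filters on low values, the linear scale with a trended prior, eBayes settings, array weights, the Gapdh 3′ minus 5′ covariate and leaving out each animal; setting values under 5 to 5 was added after seeing the data.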

Additional observations from a re-analysis of the deposited data

Results flagged for a closer look

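In 29 of 488 groups of 5 animals examined (5.94%), the highest or lowest animal lay further from the nearest of the others than Dixon's 95% limit allows; chance does this in about 1 in 20 groups. Animal 362 accounted for 5, animal 421 for 4 and animal 402 for 3 of them. Among wild type control animals such a value was found for Acaa1b (13.23 in animal 403, others 13.1 to 13.13), Adh4 (11.79 in animal 402, others 11.68 to 11.71), Akr1d1 (10.68 in animal 403, others 10.39 to 10.46) and C9 (13.14 in animal 405, others 13.34 to 13.4). Further wild type control animals stood apart for Csnk1d (9.68 in animal 404, others 9.3 to 9.41), Hsd3b4 (3.95 in animal 402, others 4.14 to 4.21) and Stt3a (10.72 in animal 402, others 10.5 to 10.54). Among wild type restricted animals such a value was found for Fabp4 (8.64 in animal 421, others 8.9 to 8.99), Nthl1 (5.5 in animal 421, others 5.05 to 5.18), Prodh (11.25 in animal 424, others 11.53 to 11.57) and Selenbp2 (12.12 in animal 422, others 12.32 to 12.35). Further wild type restricted animals stood apart for Srp54a (10.1 in animal 421, others 10.29 to 10.34) and Ulk2 (8.29 in animal 421, others 7.73 to 7.82). Among progeroid control animals such a value was found for Cela1 (10.2 in animal 327, others 10.44 to 10.5), Elovl3 (10.1 in animal 327, others 11.43 to 11.9), Nthl1 (5.8 in animal 323, others 5.54 to 5.59) and Slc16a5 (5.6 in animal 323, others 6.87 to 7.14). Further progeroid control animals stood apart for Tysnd1 (8.92 in animal 326, others 8.55 to 8.64). Among progeroid restricted animals such a value was found for Alas2 (6.61 in animal 368, others 5.67 to 5.9), Ccdc66 (6.53 in animal 362, others 6.86 to 6.95), Cyp2b13 (5.72 in animal 366, others 3.64 to 4.14) and H2-Eb1 (5.52 in animal 362, others 6.7 to 7.18). Further progeroid restricted animals stood apart for Hamp2 (10.4 in animal 362, others 11.12 to 11.27), Magt1 (10.28 in animal 368, others 10.06 to 10.12), Nek2 (4.57 in animal 365, others 4.96 to 5.1) and Spc25 (7.25 in animal 365, others 7.94 to 8.05). Further progeroid restricted animals stood apart for Ulk2 (7.7 in animal 362, others 8.29 to 8.47). The list average of fatty acid oxidation and PPARalpha targets was 0.524 in progeroid restricted animal 362 and -0.015 to 0.06 in the others. The list average of fat uptake and lipid droplet was -0.304 in progeroid control animal 325 and -0.154 to -0.12 in the others. 

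The other results set apart are the 81 named genes whose diet effect differed between the genotypes by the test of that difference, the interaction. The interaction, on the log2 scale, was positive for Cyp4a12a (3.80), Hsd3b5 (3.55), Mfsd2a (2.61), Spc25 (2.40), Elovl3 (2.18), C6 (1.97), Gpx6 (1.97), Fitm1 (1.92), Fam25c (1.77), Pnldc1 (1.77), Acot1 (1.76), Ociad2 (1.73), Olig1 (1.68) and Arsa (1.65). Next in size were Cyp2c55 (1.63), Dpy19l3 (1.61), Gal3st1 (1.58), Acot2 (1.55), Trip13 (1.5), Nek2 (1.48), Nat8 (1.40), Irf5 (1.30), C8a (1.29), Nox4 (1.27), Stmn1 (1.24), Aox3 (1.21), Plin2 (1.16) and Ahnak (1.15). Smaller values were those of Rsad2 (1.14), Creb3l3 (1.09), C9 (1.09), Gbp3 (1.05), C8b (1.02), Adh4 (0.98), Aldh3a2 (0.97), Eci2 (0.91), Cyp2c23 (0.90), Cyp2c29 (0.88), Decr2 (0.86), Pex11a (0.85), Fitm2 (0.84) and Acaa1a (0.80). Lower values were those of Acaa1b (0.77), Cyp2f2 (0.73), Ccnd3 (0.71), Alkbh2 (0.71), Tysnd1 (0.70), Amacr (0.70), Acot12 (0.68), Nbn (0.68), Trp53bp1 (0.68), Lonp2 (0.65), Dhrs4 (0.62), Cpt2 (0.56), Nthl1 (0.55), Slc27a2 (0.44) and Scp2 (0.31). It was negative for Sult1e1 (-3.84), Cyp2b13 (-3.75), Cyp17a1 (-3.15), Slc22a26 (-2.38), Slc16a5 (-2.0), Smoc2 (-1.84), Tfrc (-1.76), Pls1 (-1.69), Hamp2 (-1.69), Slc2a4 (-1.53), Lcn2 (-1.50), Dnaic1 (-1.46), Hsd3b4 (-1.42) and Slc1a5 (-1.30). Smaller negative values were those of Foxa2 (-1.03), Ccdc66 (-0.88), Pot1a (-0.61), Selenbp2 (-0.60), Ssr1 (-0.57), Stt3a (-0.54), Srp54a (-0.54), Magt1 (-0.50), Surf4 (-0.49) and Kdelr2 (-0.40). Their standard errors, adjusted p-values and the animals on which a call rested are given with the results above.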

How the results depend on the processing

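Leaving out 1 animal at a time gave between 103 and 490 called interactions, with 77 to 364 positive and 26 to 126 negative; the diet effect was called for 1433 to 2074 genes in progeroid and 3156 to 3966 in wild type livers, and the genotype effect for 1510 to 1941 on control diet and 2258 to 3169 under restriction. Array quality weights gave 363 called interactions (110 negative) and the Gapdh covariate 137 (102 positive, 35 negative). With genes of a mean of at least 7, the diet effect in wild type was called for 2547 genes and the genotype effect for 1142 on control diet and 1732 under restriction, out of the 5877 genes this filter leaves; with every probe set tested, the wild type diet effect was called for 6061 probe sets. At an adjusted p under 0.01 the 5 classes held 5 genes (both, same sign), 8 (opposite signs), 4 (progeroid and not wild type), 21 (wild type and not progeroid) and 0 (neither). All other counts stayed within 1.5 times under the alternatives run, 174 to 320 for the interaction. Median centring moved the median interaction of all genes from 0.0178 to 0.0405 and gave 217 positive and 56 negative calls. The sign turned for C6 (-171) and Lcn2 (27.6) on the linear scale with a trended prior and for Ahnak (-0.22) without probe sets that can match several transcripts; the cause was not tested. Of the 81 named called genes 24 kept their call under every alternative that tested them. On the linear scale with a trended prior, 2 changes made together, the calls of 34 others were lost, among them Cyp2b13 (0.23), Slc22a26 (0.202), Smoc2 (0.366), Nek2 (0.172), Olig1 (0.168) and Trp53bp1 (0.119). With the Gapdh covariate 30 of the 81 calls were lost (adjusted p 0.0501 to 0.108), those given with their genes and Acaa1b (0.0851), Aox3 (0.0521), C8b (0.0742), Cyp2c23 (0.0789), Fitm2 (0.0501), Foxa2 (0.0585), Hsd3b4 (0.108), Nbn (0.0601), Nek2 (0.0501), Nthl1 (0.0527), Smoc2 (0.0638) and Stmn1 (0.0547). With trended and robust moderation Hsd3b5 (0.052), Mfsd2a (0.055), Cyp17a1 (0.0586), Slc22a26 (0.0531), C8a (0.0581), C8b (0.0643), Lcn2 (0.0602), Smoc2 (0.0587) and Hsd3b4 (0.0671) were not called. The 7 list medians over 0.3 in size kept their sign in every alternative. Dim probe sets limit what can be said of 48 called genes with a group mean under 5, where background compresses differences. No paired analysis was possible because the animal numbers of the 4 groups are all different.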

Other observations

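Meg3, an imprinted noncoding RNA, averaged 5.25 ± 0.06 in wild type controls and 5.11 ± 0.22 in wild type restricted animals, against 7.71 ± 0.54 in progeroid controls and 6.32 ± 0.97 in progeroid restricted animals (SD, n = 5). It fell with restriction in progeroid livers by 1.39, and its interaction of -1.24 ± 0.45 did not pass (adjusted p = 0.198). Of its 9 other probe sets, all dim, 1 gave -0.94 and passed over all probe sets (adjusted p = 0.0343), and the others lay between -1.06 and 0.09 and did not. The 12 measured fetal and imprinted growth genes had a median interaction of 0.0314 and no call in limma (2 positive and 2 negative at an unadjusted p under 0.05). Immediate early genes (21 measured) had a median of -0.0122 (2 positive and 4 negative), with Klf6, a wound-response transcription factor, at -0.52 ± 0.18 (adjusted p = 0.164); the 2 other Klf6 probe sets, both less bright, gave -0.87 and -0.70 and passed over all probe sets (adjusted p 0.0442 and 0.0278). Ccnd1, the cyclin that starts the hepatocyte cycle, fell by 1.27 in wild type and had an interaction of 1.45 ± 0.46 (adjusted p = 0.132). Genes of gluconeogenesis and glycogen (17 measured) had a median of 0.00698 (3 positive and 1 negative). H2-Eb1, a class II antigen-presenting chain, fell by 1.86 in wild type livers (interaction 1.22 ± 0.42, adjusted p = 0.165).

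Markers of other cells had no called interaction in limma. Sinusoidal endothelium (12 measured) had a median of 0.138 with 1 positive at an unadjusted p under 0.05, Pecam1 at 0.48 ± 0.15. Stellate cells and fibroblasts (13 measured) had a median of -0.0448 (1 positive and 1 negative), with Col1a1 near the lower end of the scale at a mean of 3.79 ± 0.03 in wild type controls. Cholangiocyte markers (6 measured, all with a mean under 5) had a median of -0.0497 (0 positive and 1 negative), Krt7 at -0.25 ± 0.11. Adipocyte markers (5 measured) had a median of -0.0106 (0 positive and 1 negative), with Fabp4 at -0.31 ± 0.14. Erythroid markers (5 measured) had a median of 0.0204 (1 positive and 1 negative); Alas2, the erythroid heme synthase, fell by 1.72 in wild type and 1.14 in progeroid livers. Among pancreatic acinar markers (8 measured, median 0.0911, 1 positive), Cela1, an elastase, fell by 2.0 in wild type and 1.19 in progeroid livers (interaction 0.81 ± 0.24, adjusted p = 0.11). S100a9, a neutrophil marker, and Cd3d, a T cell marker, had interactions of -0.34 ± 0.26 and 0.37 ± 0.13. The hepatocyte marker Tat, tyrosine aminotransferase, and the pericentral enzyme Cyp2e1 had interactions of 0.45 ± 0.15 and 0.17 ± 0.08, and the respiratory chain subunit Ndufs1 -0.28 ± 0.11 (adjusted p 0.168, 0.332 and 0.246).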
